A study of Mus musculus with 9 samples.

Results

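Collagens are the chains that assemble into the triple-helical proteins of the extracellular matrix, and their genes were followed here in mouse fibroblasts given the adipogenic receptor PPARγ2 and its agonist. The genes were those with a symbol made of Col, a type number and a chain number (for example Col4a1) in the platform annotation. Of the 18193 genes that had a probe set with 1 symbol, 42 met this rule, through 82 probe sets, and each gene was read from whichever of its probe sets averaged highest. They comprised 11 fibrillar, 6 basement membrane, 5 beaded filament and 20 other collagen genes. All arrays measured NIH-CAR cells, which are 1 clone of NIH-3T3 fibroblasts that stably carries the adenovirus receptor CARΔ1, at passage 12. The first group (empty vector) received the virus AdEmpty and then the solvent DMSO. The second (full-length) received AdHA-PPARg2, which encodes HA-tagged PPARγ2, and then 1 µM rosiglitazone, and the third (A/B-deleted) received AdHA-PPARgCDE, which encodes the receptor without its N-terminal A/B-domain, and then 1 µM rosiglitazone. Each group held 3 arrays. The receptor and its agonist were always given together, so their parts cannot be told apart, and in bulk RNA fewer cells of a kind and less RNA per cell cannot be told apart either.

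Each collagen molecule is a bundle of 3 chains, and each chain has its own gene. Fibrillar collagens, led by type I, form the tensile fibres that fibroblasts secrete. Type IV collagen forms the network of basement membranes, the thin sheets that surround fat cells, muscle fibres and vessels. Type VI collagen assembles into beaded microfilaments close to the cell surface and is abundant in adipose tissue. When fibroblast-like precursors become fat cells, their matrix is known to shift from a fibrillar to a basement membrane type.

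Values are on the log2 scale throughout, either as levels or as differences between group means with the standard error (SE). A gene was called when limma's adjusted p, over all 18193 genes, was under 0.05. All cultures came from 1 clone, so the p-values reflect variation between cultures or arrays only. Pparg, the receptor's own gene, read 7.01, 6.99 and 7.17 with empty vector, 10.70, 12.22 and 10.84 in full-length cells and 10.74, 12.01 and 11.26 in deleted-receptor cells. Of 8 fibroblast markers, 8 lay above the median of all gene means, 7.44, and 0 were called in any comparison. Of 6 adipocyte markers 4 were measured, and their summed level was 8.07 to 8.51 with empty vector, 13.46 to 13.92 with the full-length and 11.49 to 13.33 with the deleted receptor, and 3 and 2 of them were called against empty vector. In that list the fatty acid carrier gene Fabp4 read 5.39 to 6.03 with empty vector, 13.13 to 13.63 with the full-length and 11.04 to 13.15 with the deleted receptor, while Adipoq, which marks mature fat cells, stayed between 5.22 and 5.84 on all 9 arrays. Muscle, bone and cartilage, leukocyte, and epithelial and endothelial marker lists had 0 called genes. The part of this adipocyte shift in the collagen values was not tested.

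The 3 arrays numbered 3 stood apart. Their 18S ribosomal RNA control probe sets averaged 7.59 to 8.67, against 10.51 to 12.44 on the other arrays, while the 3′ minus 5′ difference of the Actb controls was 0.20 to 0.24 on them and 0.20 to 0.26 elsewhere. Among collagens, array 3 was the lowest of its group in all 3 groups for 11 of 42 genes, beside 14.2% of all genes, and the highest in all 3 groups for 3 genes, beside 14.9%. The largest gaps were in Col6a2, where array 3 minus the mean of arrays 1 and 2 was -1.90, -1.61 and -1.75 with empty vector, full-length and deleted receptor, and in Col6a1 (-1.71, -1.63 and -1.58). In Col5a1 it was -1.21, -1.14 and -1.21. In the opposite direction, it was 0.89, 1.14 and 1.25 in Col8a1. The gap depended on the probe set. For Col1a1 it was -0.04, -0.01 and -0.04 in the probe set used and -1.26, -1.22 and -1.42 in the other one. Results are therefore given with and without these arrays where the call differs.

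**Figure D1:**
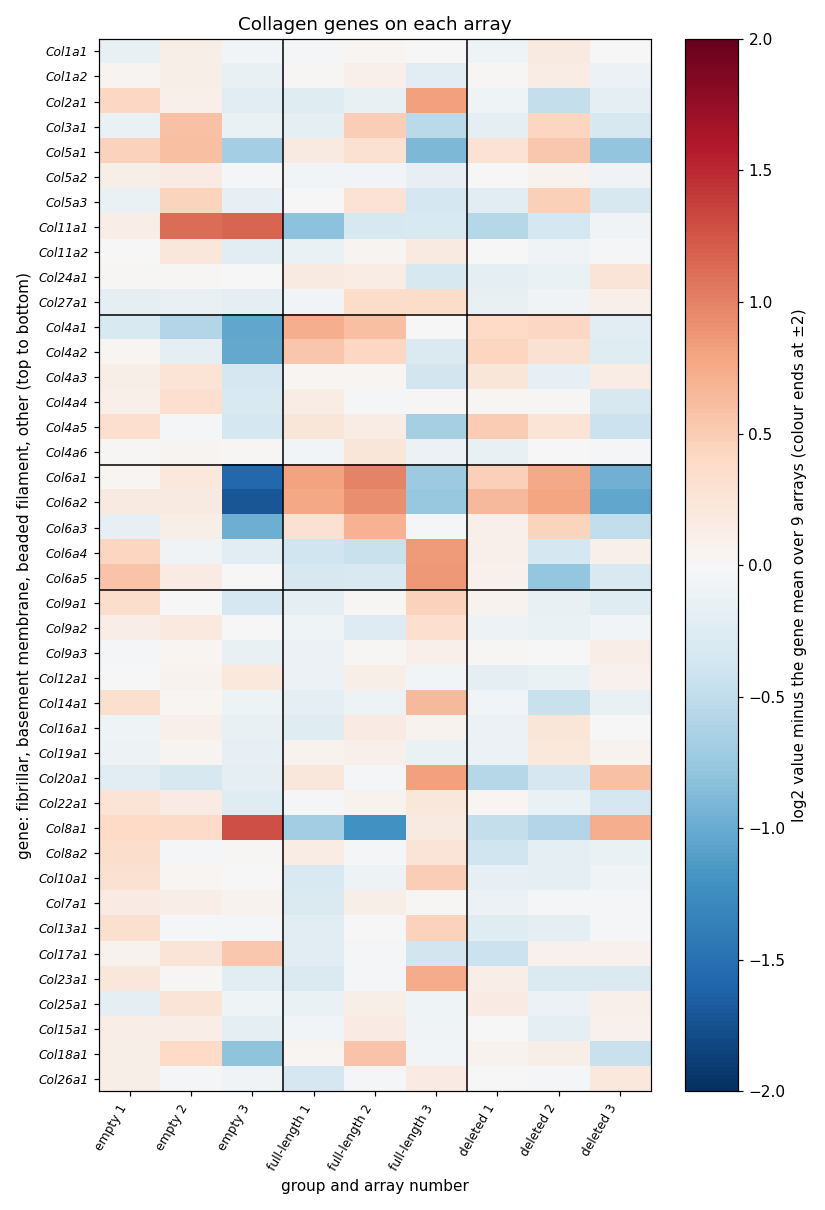
Each row is 1 of the 42 collagen genes and each column 1 of the 9 arrays; colour shows the log2 value minus the gene's mean over the 9 arrays. Col6a1, Col6a2 and Col5a1 are low on array 3 of every group, Col8a1 is high there, and Col4a1 is low in the empty-vector columns.

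Against empty vector, the full-length receptor with rosiglitazone left 0 of 42 collagen genes called by limma without a block, where 0.654% of all genes were called. A fit with the array number as a block called 5 higher and 2 lower, beside 1.89% and 1.74% of all genes. Equal array numbers were not taken as pairs in this comparison, so these block calls carry that limit and are listed in the last section. Without the arrays numbered 3, limma called 1 gene higher (Col4a1), beside 0.665% of all genes, and 1 lower (Col8a1), beside 0.192%. At an unadjusted p under 0.05 there were 5 of 42 with all arrays, against 6.19% of all genes. The 42 differences had a median of -0.0045, beside 0.0032 over all genes, and ran from -1.28 (Col11a1) to 1.08 (Col4a1). The 3 arrays of one group lay apart from those of the other in 3 genes that were higher (Col4a1, Col27a1 and Col20a1), beside 4.52% of all genes, and in 4 that were lower (Col5a2, Col11a1, Col8a1 and Col17a1), beside 4.86%. By class, the median difference was -0.04 in fibrillar, -0.0011 in basement membrane, 0.66 in beaded filament and 0.0045 in other collagen genes. The beaded filament median was that of 5 genes with wide intervals. Within array numbers 1, 2 and 3 the full-length receptor differed from empty vector by 1.04, 1.18 and 1.03 in Col4a1, by 0.76, 0.77 and 0.84 in Col6a1 and by -0.95, -1.43 and -1.47 in Col11a1.

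Against the same empty-vector arrays, the A/B-deleted receptor with rosiglitazone also left 0 of 42 called, where 0.17% of all genes were, and 3 of 42 had an unadjusted p under 0.05, against 3.79% of all genes. The median difference was -0.08, beside -0.03 over all genes. Arrays of the groups did not overlap in 2 genes that were higher (Col4a1 and Col27a1), beside 3.86% of all genes, and in 6 that were lower (Col11a1, Col4a6, Col9a2, Col8a2, Col10a1 and Col7a1), beside 4.03%. Without the arrays numbered 3, limma again called 0 of 42, beside 0.302% of all genes. Both comparisons use the same 3 control arrays, so they are not independent. Equal array numbers of the deleted-receptor and empty-vector groups moved together across genes, in their deviations from the group means. These deviations cancel out within a group, so a shift shared by the arrays numbered 3 would by itself link the other numbers too. The check therefore cannot decide whether equal numbers mark pairs, and the fit with the array number as a block is given with that limit. This block fit also takes in the full-length arrays, whose numbers were not taken as pairs with empty vector. In that fit Col4a1, Col6a1 and Col6a2 rose and Col11a1 fell, that is 3 of 42 higher beside 0.66% of all genes and 1 lower beside 0.253%. Blocked values of the full-length receptor are given with the single genes and in the last section, under the same limit. A block call for the deleted receptor does not show that its changes were firmer than those of the full-length receptor. Class medians were -0.07 for fibrillar, 0.09 for basement membrane, 0.36 for beaded filament and -0.16 for other genes. Without empty-vector replicate 3, but with the receptor arrays numbered 3 kept, the beaded filament median was -0.0467. Without all 3 arrays numbered 3, Col6a1, Col6a2, Col6a3, Col6a4 and Col6a5 differed by 0.48, 0.54, 0.29, -0.31 and -0.72.

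**Figure D2:**
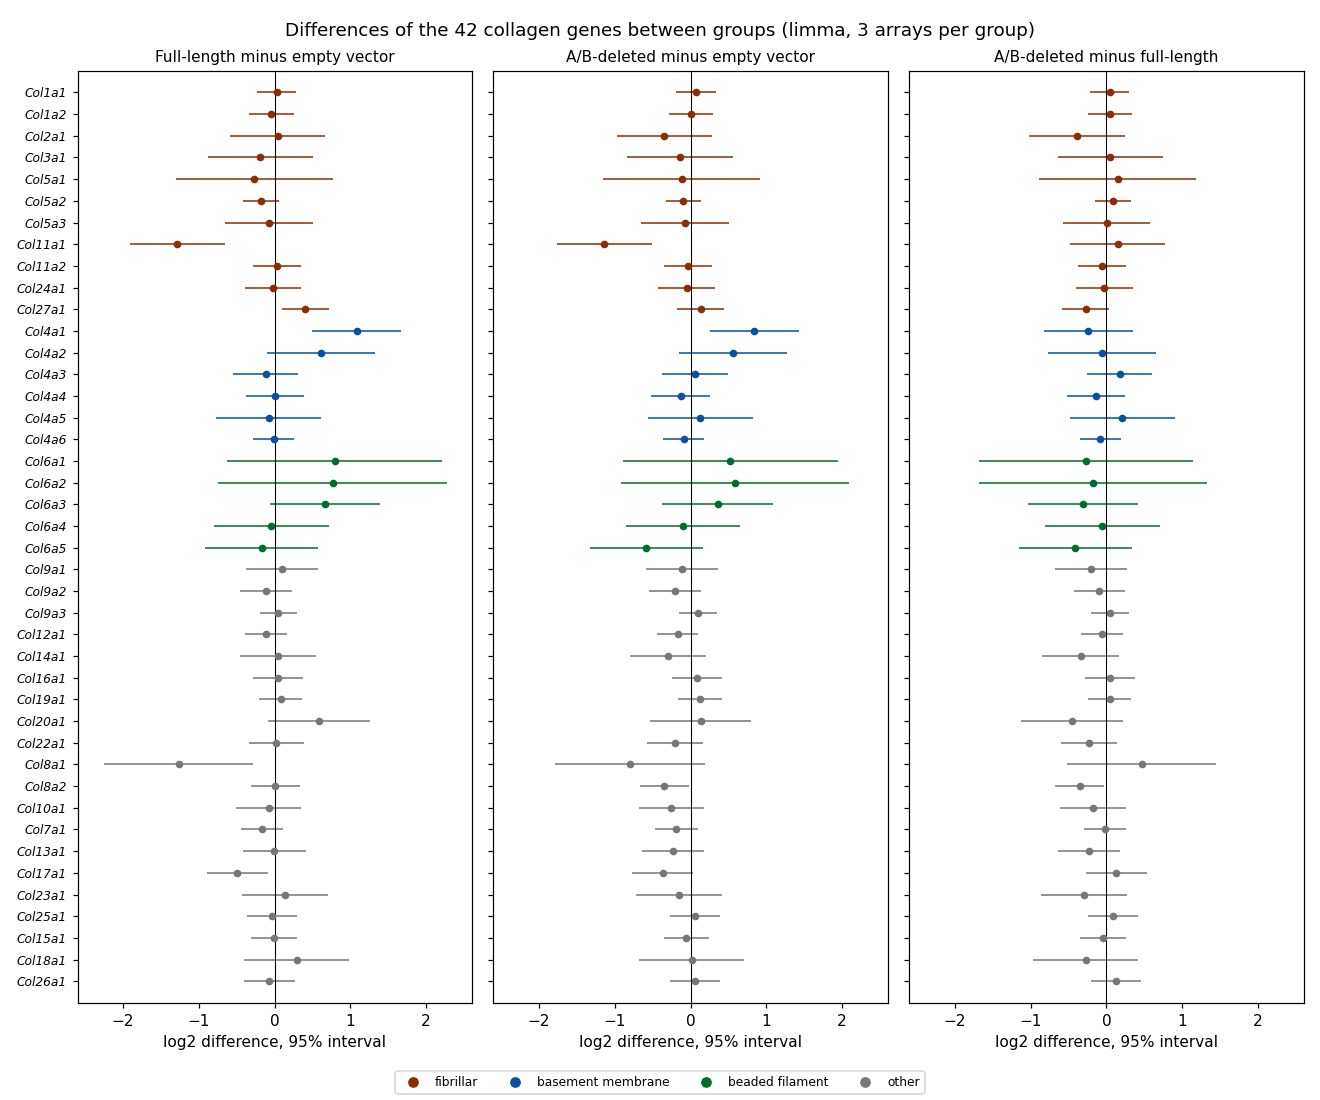
Points are log2 differences of the 42 collagen genes, with 95% intervals from limma without a block, coloured by class. Col4a1 and Col11a1 are the genes whose intervals lie farthest from 0 in both comparisons with empty vector, and the intervals of Col6a1 and Col6a2 are the widest.

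Among the basement membrane genes the larger differences were in Col4a1 and Col4a2. Col4a1 encodes the α1 chain of type IV collagen, which joins the α2 chain in the common form of the network. It read 11.58, 11.30 and 10.84 with empty vector, 12.61, 12.48 and 11.87 in full-length cells and 12.29, 12.30 and 11.66 in deleted-receptor cells. Every array with a receptor lay above the 3 empty-vector arrays. The difference was 1.08 (SE 0.26, adjusted p = 0.165), or 2.12-fold, for the full-length receptor. It was 0.84 (SE 0.26, adjusted p = 0.78) for the deleted receptor. With the block both differences were called (SE 0.08, adjusted p = 0.00246 for the full-length and 0.0144 for the deleted receptor). Without the arrays numbered 3 the full-length difference was 1.11 and was called (adjusted p = 0.017, where 0.665% of all genes were called higher).

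Col4a2, the gene of the α2 chain, read 11.59, 11.35 and 10.51 with empty vector, 12.09, 11.96 and 11.25 with the full-length and 11.97, 11.84 and 11.30 with the deleted receptor. Arrays 1 and 2 of each receptor group lay above all empty-vector arrays, while array 3 of each fell within their range. The differences were 0.62 (SE 0.32, adjusted p = 0.957, or 0.0214 with the block) and 0.56 (SE 0.32, adjusted p = 1.00, or 0.0685 with the block). The other 4 members, Col4a3 to Col4a6, encode chains of more restricted networks, as in kidney. Col4a3 had differences of -0.12 and 0.06 and Col4a4 of 0.01 and -0.13, and Col4a5 and Col4a6 were not called either.

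Col4a1 and Col4a2 are neighbours on mouse chromosome 8 and are read in opposite directions from a shared control region. RefSeq's promoter table (GRCm38.p6) places their start sites 21 bases apart, and their 300-base windows overlap over 78 bases. The Col4a1 start (minus strand) is at 11312826 and the Col4a2 start (plus strand) at 11312805, so in this annotation the transcripts overlap there. The stretch between the starts is shown because both genes begin in it. It lies inside both transcripts and is not upstream of either start. Capitals mark the motif GGGCGG (GC box, either strand).
Col4a1 and Col4a2, chr8:11312805-11312826, plus strand: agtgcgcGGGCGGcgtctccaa
In the same annotation, the next protein-coding gene after a collagen gene was another collagen gene in 7 cases, among them Col6a2 and Col6a1 on chromosome 10. The other 4 type IV genes form the pairs Col4a4 with Col4a3 and Col4a6 with Col4a5.

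With all arrays, the beaded filament genes had the largest class median against empty vector. Type VI collagen is built from α1, α2 and α3 chains, the products of Col6a1, Col6a2 and Col6a3. Col6a1 read 12.24, 12.41 and 10.61 with empty vector, 13.00, 13.18 and 11.46 with the full-length and 12.67, 12.95 and 11.22 with the deleted receptor. The groups overlapped, because array 3 of each receptor group lay below arrays 1 and 2 of empty vector, and yet each receptor array lay above the empty-vector array with its number. Its differences were 0.79 (SE 0.63, adjusted p = 1.00) and 0.53 (SE 0.63, adjusted p = 1.00). For the deleted receptor the 3 differences within an array number were 0.43, 0.54 and 0.61, and the fit with the block called them (SE 0.07, adjusted p = 0.0327). That fit also called the full-length difference (adjusted p = 0.00367).

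Col6a2 followed the same order, with 12.47, 12.47 and 10.57 for empty vector, 13.07, 13.21 and 11.53 for full-length and 12.94, 13.08 and 11.25 for deleted receptor. The difference was 0.77 (SE 0.67, adjusted p = 1.00, or 0.00811 with the block) for the full-length receptor. For the deleted receptor it was 0.59 (SE 0.67, adjusted p = 1.00, or 0.0471 with the block). Within array numbers the deleted receptor was 0.47, 0.61 and 0.68 above empty vector. Col6a3, the gene of the longest chain, read 12.23, 12.50 and 11.41, then 12.69, 13.08 and 12.35, then 12.48, 12.83 and 11.90. Its differences were 0.66 (SE 0.32, adjusted p = 0.902, or 0.0227 with the block) and 0.36 (SE 0.32, adjusted p = 1.00, or 0.258 with the block). In this chain the deleted receptor was not called in either fit.

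For type VI genes the result rests on how array 3 is handled. Leaving out empty-vector replicate 3 alone turned the deleted-receptor differences of Col6a1 and Col6a2 to -0.04 and -0.05 and lowered the full-length ones to 0.22 and 0.13. Leaving out only the receptor array numbered 3 raised them to 1.05 and 1.17 for the deleted and to 1.34 and 1.30 for the full-length receptor. Leaving out all 3 arrays numbered 3 kept them at 0.48 and 0.54 for the deleted and 0.77 and 0.67 for the full-length receptor. None of these passed the threshold (adjusted p = 0.383, 0.229, 0.0819 and 0.0653). The remaining beaded filament genes, Col6a4 and Col6a5, encode chains that can replace α3. Col6a5 read between 4.23 and 5.86 over the 9 arrays, with differences of -0.17 and -0.58 and no call for either gene.

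**Figure D3:**
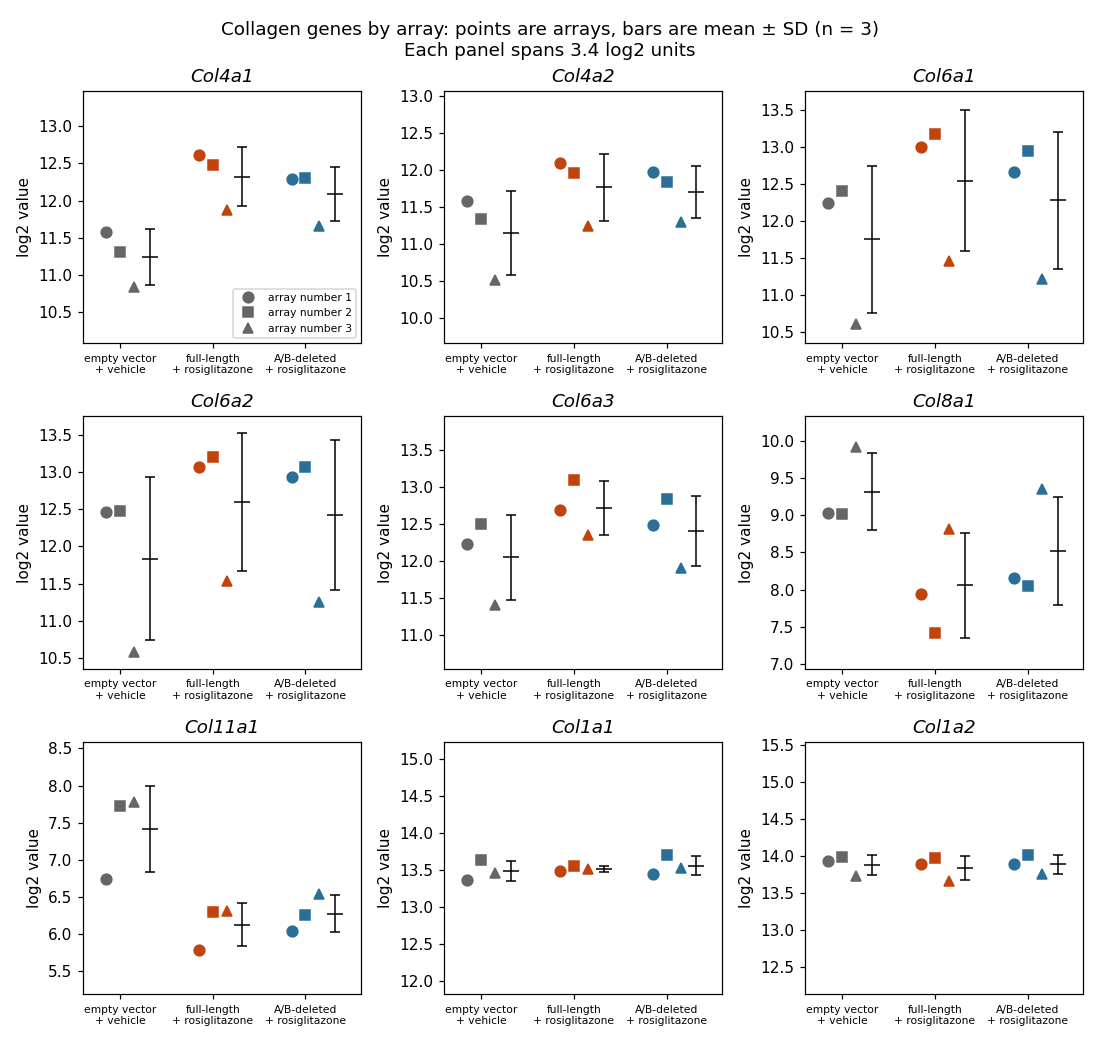
Log2 values of 9 collagen genes on each array, with circles, squares and triangles for arrays numbered 1, 2 and 3 and bars for the mean ± SD of 3 arrays; every panel spans the same 3.4 log2 units. The receptor groups sit above empty vector for Col4a1, below it for Col11a1, and level with it for Col1a1 and Col1a2, while array 3 widens the bars of Col6a1 and Col6a2.

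None of the major fibrillar genes was called, and the type I genes differed little between groups. Col1a1 and Col1a2 encode the α1 and α2 chains of type I collagen, the main product of fibroblasts, and were described after their values were seen. Col1a1 was at 13.49 ± 0.13 (SD, n = 3) in empty-vector cells, 13.51 ± 0.04 in full-length and 13.56 ± 0.13 in deleted-receptor cells. Its differences were 0.03 (95% interval -0.23 to 0.29) and 0.07 (-0.19 to 0.33). Col1a2 was at 13.89 ± 0.14, 13.84 ± 0.16 and 13.89 ± 0.13, with differences of -0.04 (-0.34 to 0.25) and 0.01 (-0.29 to 0.30). The second Col1a1 probe set, with differences of 0.08 and 0.05, showed an array 3 gap that the one used did not, and no interval was computed for it.

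Col3a1, the gene of the type III chain that is laid down with type I in loose tissue, was at 10.96 ± 0.41, 10.77 ± 0.52 and 10.82 ± 0.41. Col5a1 and Col5a2 encode chains of type V, which starts fibril assembly. Col5a1 had differences of -0.27 (SE 0.46) and -0.12 (SE 0.46). Col5a2 read 12.51, 12.56 and 12.37 with empty vector and 12.34, 12.34 and 12.24 with the full-length receptor, groups that did not overlap, with a difference of -0.18 (SE 0.11, adjusted p = 1.00). The second Col5a2 probe set gave -0.44 with the full-length and -0.17 with the deleted receptor. Col3a1, Col5a1 and Col5a2 were also described after their values were seen.

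Col11a1, the gene of a minor fibrillar chain best known from cartilage, was the fibrillar gene with the largest difference. It read 6.74, 7.72 and 7.77 with empty vector, 5.78, 6.29 and 6.30 in full-length cells and 6.03, 6.25 and 6.54 in deleted-receptor cells. All 6 receptor arrays lay below the 3 empty-vector arrays. The difference was -1.28 (SE 0.28, adjusted p = 0.106) for the full-length receptor, with empty vector 2.44-fold higher. For the deleted receptor it was -1.14 (SE 0.28, adjusted p = 0.403), and the fit with the block called it lower (SE 0.15, adjusted p = 0.0291). That fit also called the full-length difference (adjusted p = 0.00841). Leaving out empty-vector replicate 1, the lowest of its group, gave -1.62 for the full-length receptor and a call (adjusted p = 0.022, where 0.11% of all genes were called lower). The receptor arrays of this gene lay below the array medians, 6.68 to 6.90, without a detection call to say whether the gene was above background there. Empty-vector replicate 1 (6.74) was also below the median of its array (6.88). The gene's mean over the 9 arrays, 6.60, was under the median of gene means, 7.44. Its second probe set gave -0.73 and -0.37.

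Col27a1, a long fibrillar chain of cartilage and other tissues, read 8.39, 8.42 and 8.37 with empty vector, 8.51, 8.95 and 8.94 in full-length cells and 8.42, 8.49 and 8.67 in deleted-receptor cells. All full-length arrays lay above empty vector, by 0.41 on average (SE 0.14, adjusted p = 0.476), and the deleted receptor differed by 0.13 (SE 0.14, adjusted p = 1.00). Its second probe set gave 0.39 and 0.18. The remaining fibrillar genes, Col2a1, Col5a3, Col11a2 and Col24a1, lay under the median of gene means and were not called.

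Among the other collagens Col8a1 stood out. It encodes a short-chain collagen that forms hexagonal networks and is made by vessel wall cells and activated fibroblasts. It read 9.03, 9.02 and 9.92 with empty vector, 7.93, 7.42 and 8.81 in full-length cells and 8.15, 8.05 and 9.36 in deleted-receptor cells. The full-length arrays all lay below the empty-vector arrays, and array 3 was the highest of each group. The difference was -1.26 (SE 0.44, adjusted p = 0.49, or 0.00541 with the block) for the full-length receptor, with empty vector 2.40-fold higher. It was -0.80 (SE 0.44, adjusted p = 1.00, or 0.0605 with the block) for the deleted receptor. Without the arrays numbered 3 it was -1.35 for the full-length receptor and was called (adjusted p = 0.0238, where 0.192% of all genes were called lower). Its 3 probe sets ran from -1.36 to -0.90 for the full-length and from -0.80 to -0.36 for the deleted receptor.

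Col20a1, a fibril-associated collagen, read 6.95, 6.85 and 6.98 with empty vector and 7.40, 7.15 and 7.99 with the full-length receptor, which did not overlap. The deleted receptor gave 6.59, 6.84 and 7.75, with array 3 alone above empty vector. The differences were 0.59 (SE 0.30, adjusted p = 0.944) and 0.13 (SE 0.30, adjusted p = 1.00), and over its 4 probe sets the first ran from -0.02 to 0.59. Of the 20 other collagens, 3 (Col8a1, Col12a1 and Col16a1) had a mean above the median of gene means. The table held no detection calls, so the genes under it may not be expressed in these cells.

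Agreement between probe sets could be checked for 27 genes. With the full-length receptor, all probe sets of a gene were above 0 in 6 genes and below 0 in 6, while 15 genes had both signs, among them Col1a2 and Col4a3. With the deleted receptor these counts were 7, 8 and 12. Both probe sets of Col4a1 were higher, by 0.65 and 1.08 with the full-length and by 0.55 and 0.84 with the deleted receptor. Both of Col6a2 were higher, by 0.77 and 0.88, then 0.59 and 0.64. Those of Col1a1 gave 0.03 and 0.08, then 0.07 and 0.05. Col4a2, Col6a1 and Col6a3 had 1 probe set each.

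**Figure D4:**
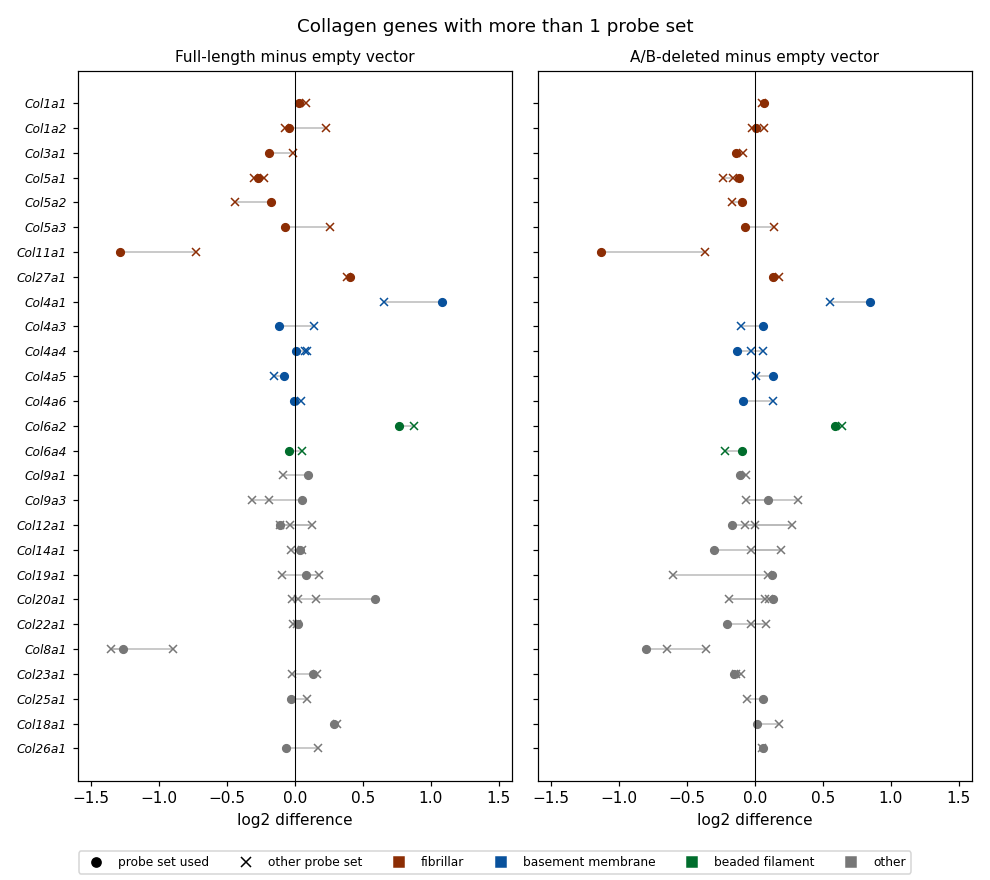
Log2 differences from empty vector for every probe set of the 27 collagen genes with more than 1, with the full-length receptor on the left and the deleted receptor on the right; circles are the probe sets used and crosses the others. The probe sets of Col4a1 and Col6a2 all lie above 0 and those of Col8a1 and Col11a1 all lie below 0.

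Of the 42 genes, 33 had a promoter window in the RefSeq table (36 windows of 300 bases, from 250 before to 50 after a start). Letters were searched on both strands. The median GC content was 59.8% in collagen windows and 52.7% in all windows, and its part in the motif shares was not tested. GGGCGG was in 61.1% of collagen windows and 35.7% of all windows, CCAAT in 36.1% and 37.4%, and TATAAA in 13.9% and 13.6%. The half-site of nuclear receptors, AGGTCA, was in 22.2% and 16.3%. PPARγ binds DR1, a direct repeat of the half-site with 1 base between the copies, and its exact form was in 0 of 36 collagen windows and in 0.0396% of all windows. DR1 contains the half-site, and windows can hold several motifs. The 150 bases before the start are shown for the type VI neighbours, which were both called higher with the block, and for the 2 genes with the largest negative differences, with every match to these motifs in capitals.
Col6a1, chr10:76726045-76726194, minus strand: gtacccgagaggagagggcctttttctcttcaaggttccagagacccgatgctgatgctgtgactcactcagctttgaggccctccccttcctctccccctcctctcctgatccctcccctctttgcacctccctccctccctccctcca
Col6a2, chr10:76623631-76623780, minus strand: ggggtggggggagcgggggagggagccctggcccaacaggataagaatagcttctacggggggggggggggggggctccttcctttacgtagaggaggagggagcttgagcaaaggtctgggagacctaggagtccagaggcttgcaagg
Col8a1, chr16:57754738-57754887, minus strand: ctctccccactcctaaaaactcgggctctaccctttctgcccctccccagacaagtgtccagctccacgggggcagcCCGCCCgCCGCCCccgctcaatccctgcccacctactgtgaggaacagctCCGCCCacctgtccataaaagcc
Col11a1, chr3:114030329-114030478, plus strand: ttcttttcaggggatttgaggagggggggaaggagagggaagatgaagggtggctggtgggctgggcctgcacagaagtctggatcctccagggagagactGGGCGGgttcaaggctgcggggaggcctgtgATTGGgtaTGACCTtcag
The stretches of Col6a1 and Col6a2 held none of the 5 motifs, that of Col8a1 held 3 GC boxes, and that of Col11a1 held 1 GC box, 1 CCAAT box and 1 half-site. A match describes letters and is not a measured binding site.

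The third comparison set the deleted receptor against the full-length one. Limma called 0 of 42 collagen genes with or without the block, as for 0 of all 18193 genes, and 1 of 42 had an unadjusted p under 0.05, against 1.52% of all genes. The median difference was -0.06, beside -0.01 over all genes. Arrays of the receptors did not overlap in 1 gene, Col8a2, which was lower with the deleted receptor, beside 3.14% of all genes. For Col4a1 the deleted receptor was lower by 0.24, with a 95% interval from -0.83 to 0.35, and for Col4a2 the difference was -0.06 (-0.77 to 0.65). For Col6a1, Col6a2 and Col6a3 it was -0.27 (-1.68 to 1.15), -0.18 (-1.69 to 1.33) and -0.31 (-1.03 to 0.42). Col8a1 differed by 0.47 (-0.52 to 1.45) and Col11a1 by 0.15 (-0.48 to 0.78). Col27a1 differed by -0.27 (-0.58 to 0.04). These intervals are from the fit without the block. With the block, they were -0.43 to -0.05 for Col4a1, -0.44 to -0.10 for Col6a1, -0.55 to -0.06 for Col6a3, 0.16 to 0.77 for Col8a1 and -0.53 to -0.01 for Col27a1. These leave out 0 gene by gene, but with limma's adjustment over all genes the p was 0.831 to 0.98. The block intervals of Col4a2 (-0.29 to 0.16), Col6a2 (-0.39 to 0.03) and Col11a1 (-0.21 to 0.51) included 0. That no gene was called does not show that the receptors act alike.

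The genes that make, process, bind and break down collagen were followed in 8 lists, of which 86 of 100 symbols were measured. The 100 symbols hold older names of some of the same genes, such as Ctgf for Ccn2, so not every unmeasured symbol is an unmeasured gene. Limma called 0 of 86 in each comparison, with 10, 2 and 0 at an unadjusted p under 0.05 for full-length against empty vector, deleted against empty vector and deleted against full-length. Of all genes, 0.654%, 0.17% and 0% were called and 6.19%, 3.79% and 1.52% had such an unadjusted p. The list medians against empty vector ran from -0.22 (inducers) to 0.15 (basement membrane partners) with the full-length receptor and from -0.20 (inducers) to 0.04 (basement membrane partners) with the deleted receptor. With the block, 2 of 86 were called for the deleted receptor, beside 0.912% of all genes. Creb3l1, which encodes a membrane-bound transcription factor of the secretory pathway that drives collagen genes in bone, rose by 0.73 (adjusted p = 0.0245 with the block, 0.584 without). Ccn2, the connective tissue growth factor gene, a matrix gene that responds to TGF-β, fell by 1.40 (adjusted p = 0.0276 with the block, 0.876 without).

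With the full-length receptor Ccn2 read 10.25, 9.20 and 10.50, against 12.37, 11.99 and 12.84 with empty vector, a difference of -2.42 (SE 0.46, adjusted p = 0.062). Creb3l1 was 0.96 higher (SE 0.20, adjusted p = 0.0931). Tgfb2, a TGF-β ligand gene, was 1.50 higher (SE 0.51, adjusted p = 0.476; 1.72 and adjusted p = 0.0233 without the arrays numbered 3) and Smad3, a transducer of that pathway, differed by -0.98 (SE 0.23, adjusted p = 0.146). Thbs1, the thrombospondin gene whose product binds collagen and activates TGF-β, differed by -1.51 (SE 0.62, adjusted p = 0.706). Nid1, whose product links laminin to type IV collagen, differed by 0.54 (SE 0.26, adjusted p = 0.896). The collagen receptor gene Ddr1 differed by -0.62 (SE 0.28, adjusted p = 0.842), and Itgb1, the β1 integrin gene, by -0.37 (SE 0.15, adjusted p = 0.733). Fkbp14, which encodes a folding enzyme of collagen chains, differed by -0.46 (SE 0.38, adjusted p = 1.00). With all arrays and no block, none of the pathway genes named here passed the threshold. Each gene named in this paragraph was called for the full-length receptor in the fit with the block, as listed in the last section.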

How the data were processed

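RNA of 9 cultures was hybridised to Affymetrix mouse arrays, 3 per group, after oligo(dT)-primed labelling of 2 µg total RNA, per the labels' protocols; virus was left on for 2 h. The deposited table holds 1 log2 value per probe set and array. The submitters' processing notes name RMA, affy and R 2.5.0 without their roles, and the genome build is not given in the sources used here. Log base 2 follows from the numbers themselves, whose antilogs were whole hundredths (tolerance 0.01 of a hundredth) for at least 99.858% of entries on every array; array medians ran from 6.68 to 6.90. Values were used as deposited. Arrays have no read depth, and their number limits the precision.

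Probe sets with several symbols or none and control probe sets were left out. Summaries used Python 3.11.15 (pandas 2.3.3, numpy 2.4.6) and plots matplotlib 3.10.9. Differences were tested in R 4.3.3 with limma 3.58.1 (lmFit, contrasts, eBayes, two-sided) in 1 fit over 9 arrays and 18193 genes with no block, with Benjamini-Hochberg adjustment; the code was tested on simulated data. Genes were named if called in any comparison with or without the array number as a block, or if they had the largest difference of their class in either direction against empty vector; pathway genes were named if called in either fit, at most 4 per list. The members and lists were chosen with earlier results of these data known. Equal array numbers were checked by the correlation across genes of deviations from group means. It was 0.570, 0.520 and 0.708 for the deleted receptor and empty vector and 0.297, 0.507 and 0.531 for the 2 receptors. For the full-length receptor and empty vector it was -0.121, 0.631 and 0.255, and these numbers were not taken as pairs. No arrays were paired in the main fit, and the block fit took in all 9 arrays. Deviations cancel out within a group, so the 3 correlations of a comparison are not separate evidence. Pairs of the first 2 kinds would also imply the third, so the pairing is not settled. The alternatives were the block, each array left out, the arrays numbered 3 left out, the 6 compared arrays alone, median subtraction, quantile normalization, averaged probe sets, genes above the median level, and an intensity trend with a robust prior. Promoter windows and gene order came from RefSeq (GRCm38.p6).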

Additional observations from a re-analysis of the deposited data

How the results depend on the processing

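With the array number as a replicate block, the collagen genes called for the full-length receptor against empty vector went from 0 to 5 higher and 2 lower, where 1.89% and 1.74% of all genes were called: Col4a1, Col4a2, Col6a1, Col6a2 and Col6a3 higher (adjusted p = 0.00246, 0.0214, 0.00367, 0.00811 and 0.0227) and Col11a1 and Col8a1 lower (0.00841 and 0.00541). Of the 86 pathway genes, 3 were then called higher (Creb3l1, Tgfb2 and Nid1) and 6 lower (Ccn2, Smad3, Thbs1, Ddr1, Itgb1 and Fkbp14), beside the same shares of all genes. The numbers were not taken as pairs here, because the correlation was 0.631 and 0.255 for numbers 2 and 3 but -0.121 for number 1. For the deleted receptor the block moved the counts from 0 to 3 higher and 1 lower, and it called 0 in the comparison of the receptors. Without the arrays numbered 3 the full-length receptor had 1 gene higher and 1 lower. Leaving out 1 array gave 0 higher and 0 to 1 lower for it, and 0 either way for the deleted receptor. Under the other alternatives the counts stayed at 0.

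Class medians moved by more than the spread between arrays in a few settings. With genes above the median level, the basement membrane median was 0.31 for the full-length and 0.34 for the deleted receptor, over 4 genes in place of 6, and the median of the other class was 0.05 between the receptors. Without the arrays numbered 3 the median of other collagens was -0.21 and -0.22. With averaged probe sets it was -0.071 for the deleted receptor. Leaving out 1 array gave 0.13 to 0.89 for beaded filament genes with the full-length receptor, and -0.15 to 0.0822 for fibrillar and -0.25 to -0.0726 for other genes with the deleted receptor. The beaded filament median for the deleted receptor ran from -0.0467 to 0.61, within that spread.

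For single genes, some signs turned, and the cause was not tested. With all arrays and no block no collagen gene was called, so no called difference could turn there. The deleted-receptor differences of Col6a1 and Col6a2, which were called with the block, were among those that turned. For the full-length receptor, Col4a4 was -0.16 without the arrays numbered 3, -0.0189 with median subtraction and -0.0213 with quantile normalization, and averaging probe sets gave 0.0389 for Col1a2 and 0.0133 for Col4a3. For the deleted receptor, leaving out the arrays numbered 3 gave -0.0062 for Col1a2, -0.16 for Col4a3 and -0.18 for Col20a1, quantile normalization gave -0.0003 for Col1a2, and averaging probe sets gave -0.0226 for Col4a3. Between the receptors averaging probe sets gave -0.036 for Col4a3. Leaving out 1 array gave, for the full-length receptor, -0.0318 to 0.10 for Col1a1, -0.12 to 0.049 for Col1a2, -0.47 to 0.0496 for Col3a1, -0.67 to 0.11 for Col5a1, -0.29 to 0.0201 for Col4a3, -0.17 to 0.15 for Col4a4 and -0.56 to 0.0297 for Col6a5. For the deleted receptor it gave -0.0005 to 0.14 for Col1a1, -0.0707 to 0.0707 for Col1a2, -0.37 to 0.10 for Col3a1, -0.52 to 0.28 for Col5a1, -0.12 to 0.18 for Col4a3, -0.31 to 0.0129 for Col4a4, -0.0432 to 1.05 for Col6a1, -0.0467 to 1.17 for Col6a2 and -0.21 to 0.37 for Col20a1. Between the receptors it gave -0.0221 to 0.27 for Col11a1, -0.32 to 0.14 for Col4a2, -0.81 to 0.26 for Col6a1 and -0.72 to 0.41 for Col6a2.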
